A study of Bombyx mori with 4 samples.

Results

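In the silkworm Bombyx mori, 79 of 14622 loci of the prothoracic gland stood higher after 3 h than after 1 h of culture without hormone, and at 3 h were lower with prothoracicotropic hormone (PTTH) than without it. They were chosen from the deposited table by their own values. The mean over the 4 libraries had to reach 1 FPKM (a fragment count divided by transcript length and library size), which 8547 tested loci met. The ratio of (FPKM + 1) of PTTH 3 h over control 3 h had to be at most 0.5, with the upper confidence limit of PTTH 3 h below the lower limit of control 3 h. The ratio of control 3 h over control 1 h had to be at least 1.5.

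The groups were PTTH 3 h, control 3 h, PTTH 1 h and control 1 h, and each was 1 library, so the data hold no replicates and no test was made. Glands came from day 4 larvae of the fifth instar of a commercial racial hybrid, and all of them spent 30 min in Grace's medium before the incubation started. The PTTH groups then received 10 nM recombinant hormone in that medium and the control groups the medium alone. RNA came from 12 to 18 larvae per preparation, and 2 preparations were pooled for each library. Each gland pair was divided between hormone and control medium, so PTTH and control libraries of a time are paired. The 3 h and 1 h libraries come from different glands, and a difference between larval pools cannot be told apart from a change with time.

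The prothoracic gland makes ecdysteroids from dietary sterols through a series of enzymes, many of them cytochrome P450s, and the steroids it releases start the moults and metamorphosis. PTTH is a peptide from the brain that binds the receptor tyrosine kinase Torso on gland cells and acts through the ERK kinase cascade, with second messengers such as calcium and cyclic AMP. A gland kept in medium without added hormone is cut off from the brain that supplies it.

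The table pairs loci with no gene names, and 0 of its identifiers matched a RefSeq list of 18210 silkworm genes. Each locus is therefore given by its scaffold, start and end as listed, and no exon, UTR or function can be assigned to it. The labelled tissue could not be checked against marker genes for the same reason. In such pooled tissue, fewer cells of a type and less RNA per cell cannot be told apart. Total depth, read from the confidence limits as implied fragments (the number of fragments whose Poisson error would give the limits), ranged from 8130000 to 10290000 per library.

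The 79 loci lay on 59 scaffolds, and 12 of these scaffolds carried 2 or more of them. Their median FPKM was 8.04 in PTTH 3 h, 19.9 in control 3 h, 7.90 in PTTH 1 h and 9.64 in control 1 h. Control 3 h was the high library, which the rule fixes against PTTH 3 h and control 1 h. The other 3 medians lay close together. Mean levels ran from 2.14 to 983 FPKM with a median of 11.3 FPKM, against 14.6 FPKM over all tested loci. A mean of at least 100 FPKM was reached by 6 of the 79, and the share of tested loci at that level was not counted. None was among the 100 most abundant tested loci, which are 1.17% of all tested loci, so nothing is read from their absence. Spans ran from 228 to 39899 bases with a median of 3460 bases, against 4524 bases over all tested loci. No span overlapped that of another locus in the table, which 0.386% of tested spans did, and none of the 79 was listed at 0 in any library. The share of tested loci listed at 0 was not counted, and nothing is read from these absences.

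The values that chose the loci are given as a description. The median log2 ratio of (FPKM + 1), PTTH 3 h over control 3 h, was -1.27 over the 79 loci and -0.19 over all tested loci, and the lowest of the 79 was at -3.09. The median log2 ratio of control 3 h over control 1 h was 0.85, running from 0.59 to 2.35 over the 79, and 0.06 over all tested loci. Of all tested loci, 2.75% were at least 2-fold lower with PTTH at 3 h with limits apart, and 9.85% were at least 1.5-fold higher in control 3 h than in control 1 h. Both conditions together were met by 0.924%. Counts of loci past a fold, here and below, are on the (FPKM + 1) scale. Because the median of all loci was itself -0.19, the count depends on the scaling, and with both ratios centred on their medians 44 of the 79 loci met the rule.

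**Figure D1:**
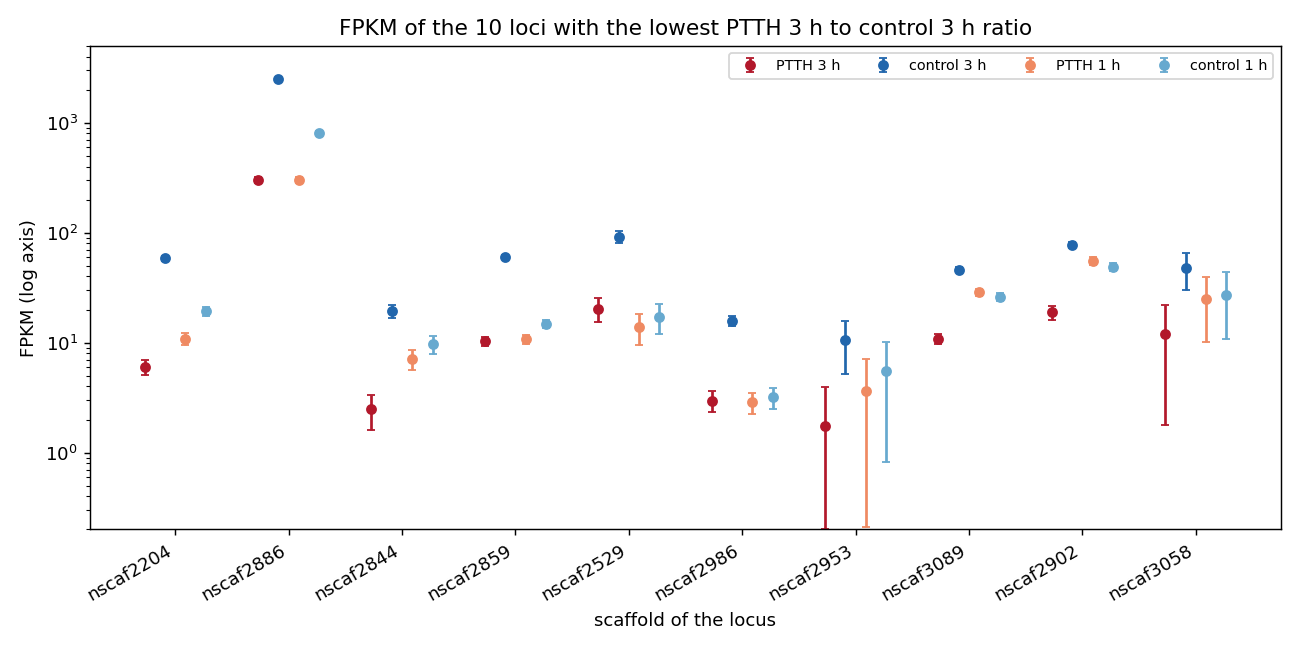
FPKM on a log axis for the 10 loci with the lowest ratio of PTTH 3 h to control 3 h, labelled by scaffold, with points for the 4 libraries and bars for the authors' confidence limits. Control 3 h is the highest point at every locus; the lower limits of 0 and 0.209 FPKM at nscaf2953 end at or near the foot of the axis at 0.2 FPKM.

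The strongest differences with hormone at 3 h were seen at 2 loci whose culture-time rise was about 3-fold. XLOC_001851, at nscaf2204 1401844 to 1411620, had 6.01 FPKM (limits 5.06 to 6.97) in PTTH 3 h, 58.7 FPKM (55.6 to 61.9) in control 3 h, 10.9 FPKM (9.59 to 12.2) in PTTH 1 h and 19.5 FPKM (17.6 to 21.3) in control 1 h. Its 4 intervals did not overlap, and PTTH was the lower library at both times. Its culture-time fold was 3.02 without hormone, whereas PTTH 3 h was 1.81-fold lower than PTTH 1 h. XLOC_007474, at nscaf2886 229940 to 233028, was the most abundant of the 79. It had 302 FPKM (285 to 320) in PTTH 3 h, 2524 FPKM (2470 to 2577) in control 3 h, 303 FPKM (285 to 321) in PTTH 1 h and 803 FPKM (772 to 835) in control 1 h. The PTTH libraries could not be told apart by their limits, while control 3 h was 3.14-fold above control 1 h.

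Where PTTH 3 h stood relative to the 1 h level sorted the loci into 3 patterns. In 48 of the 79 the limits of PTTH 3 h and control 1 h overlapped, in 29 PTTH 3 h was lower and in 2 it was higher, where all tested loci gave 54.8%, 27.5% and 17.7%. The rule fixed control 1 h and PTTH 3 h each below control 3 h, so these counts are a description only. Taking control 1 h as 0% and control 3 h as 100%, PTTH 3 h lay between -106% and 24.9% of the culture-time rise, with a median of -30.5%. The upper end follows in part from the thresholds. PTTH 3 h was below control 1 h by any amount in 69 (87.3%), and in 59.6% of tested loci. The thresholds alone decide this for the 53 loci with a rise under 2-fold, so nothing is read from the shares.

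In the first pattern the limits of PTTH 3 h and control 1 h overlapped, which does not show equal levels. At thin loci they overlapped across large differences. At nscaf2953 1705534 to 1706492 PTTH 3 h was 3.18-fold below control 1 h, from 2.50 implied fragments in PTTH 3 h. A rise of at least 2-fold was seen in 26 of the 79 (32.9%), and in 2.36% of all tested loci. The rule demands a 1.5-fold rise of the 79, so the excess over all tested loci is fixed by the choice. Of the 842 tested loci with a 1.5-fold rise, 202 reached 2-fold. Of these 26, 19 had overlapping limits, 5 were lower and 2 higher in PTTH 3 h than in control 1 h. Of the 53 with a smaller rise, 29 overlapped, 24 were lower and 0 higher. With a rise under 2-fold the rule itself puts PTTH 3 h below control 1 h, so nothing is read from the difference between these counts. A long locus at nscaf3027 3646707 to 3677240 held 17.7 FPKM (16.4 to 18.9) in PTTH 3 h, 67.2 FPKM (64.7 to 69.6) in control 3 h, 17.3 FPKM (16.1 to 18.6) in PTTH 1 h and 17.7 FPKM (16.4 to 19.1) in control 1 h. Only control 3 h stood apart, 3.78-fold above control 1 h, and the log2 ratio of PTTH 3 h over control 1 h was -0.01 ± 0.07 (counting SE from the implied fragments, as for every ± here).

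The largest rise belonged to a short locus at nscaf2529 4343578 to 4343905. It had 20.4 FPKM (15.3 to 25.5) in PTTH 3 h, 91.6 FPKM (80.7 to 103) in control 3 h, 13.9 FPKM (9.5 to 18.3) in PTTH 1 h and 17.2 FPKM (12.1 to 22.3) in control 1 h. Control 3 h was 5.33-fold above control 1 h, and the other 3 intervals overlapped each other. At nscaf2986 3882476 to 3890786 the values were 2.96 FPKM (2.32 to 3.60) in PTTH 3 h, 15.8 FPKM (14.3 to 17.4) in control 3 h, 2.88 FPKM (2.23 to 3.52) in PTTH 1 h and 3.20 FPKM (2.48 to 3.91) in control 1 h. The rise without hormone was 4.95-fold, and the ratio of PTTH 3 h to PTTH 1 h was 1.03.

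Similar flat PTTH values were found at nscaf3031 2818914 to 2823229, with 9.44 FPKM (7.97 to 10.9) in PTTH 3 h, 36.9 FPKM (34.0 to 39.8) in control 3 h, 9.91 FPKM (8.40 to 11.4) in PTTH 1 h and 10.9 FPKM (9.21 to 12.5) in control 1 h. Its rise without hormone was 3.40-fold. At nscaf2809 198823 to 201732 the libraries had 9.13 FPKM (7.89 to 10.4) in PTTH 3 h, 27.7 FPKM (25.6 to 29.9) in control 3 h, 7.56 FPKM (6.43 to 8.70) in PTTH 1 h and 8.34 FPKM (7.11 to 9.57) in control 1 h. Again the control 3 h interval alone was separate. At a low locus, nscaf2818 2291080 to 2292910, control 3 h was likewise the one library apart, with 6.82 FPKM (3.11 to 10.5) in PTTH 3 h, 21.4 FPKM (14.8 to 28.0) in control 3 h, 6.27 FPKM (2.57 to 9.97) in PTTH 1 h and 5.4 FPKM (1.8 to 9.0) in control 1 h. Its control 1 h value rests on 9.0 implied fragments.

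Abundant loci at or near the 1 h level with PTTH lay on nscaf1898. At 7742016 to 7744224 there were 135 FPKM (122 to 148) in PTTH 3 h, 318 FPKM (298 to 338) in control 3 h, 131 FPKM (117 to 144) in PTTH 1 h and 137 FPKM (123 to 151) in control 1 h. At 7858375 to 7865086 there were 162 FPKM (159 to 165) in PTTH 3 h, 392 FPKM (387 to 397) in control 3 h, 158 FPKM (155 to 161) in PTTH 1 h and 183 FPKM (180 to 186) in control 1 h. The second of these had at least 11829 implied fragments in every library, and both PTTH libraries were slightly below control 1 h with limits apart. Its rise without hormone was 2.14-fold, and the PTTH libraries differed by a ratio of 1.02.

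**Figure D2:**
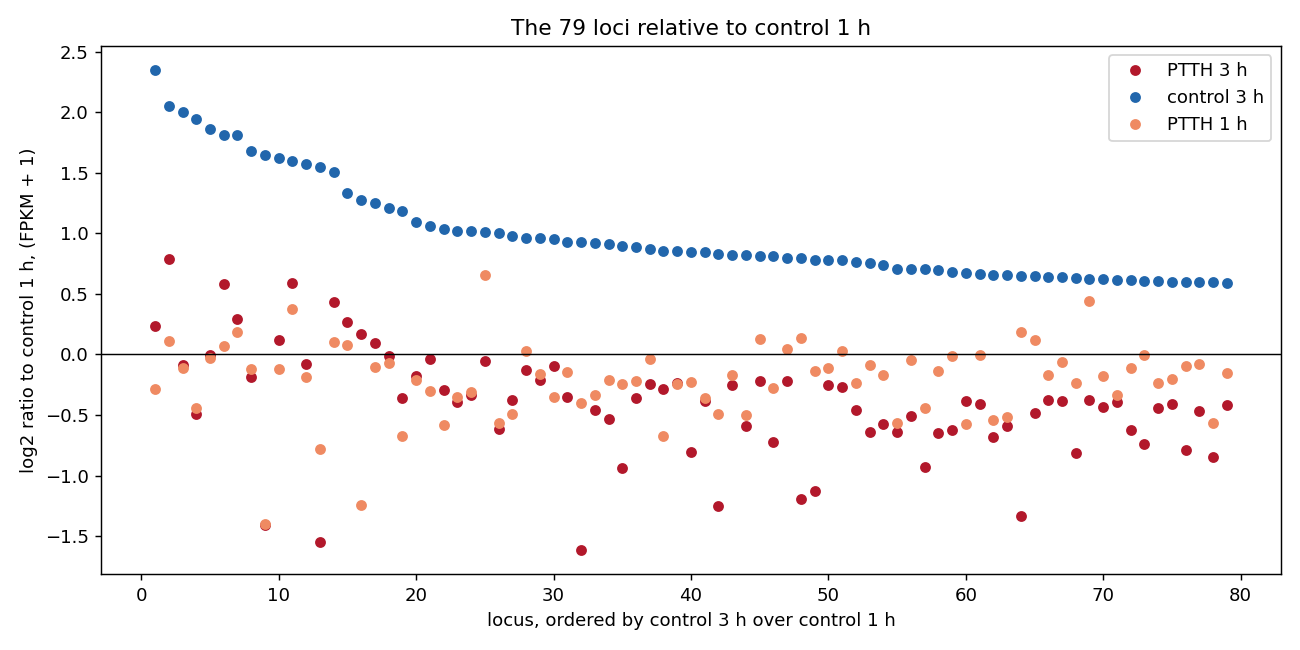
Log2 ratios of (FPKM + 1) to control 1 h for each of the 79 loci, ordered along the horizontal axis by control 3 h, with points for PTTH 3 h, control 3 h and PTTH 1 h. Control 3 h runs from 2.35 down to 0.59 by the choice of loci, and PTTH 3 h lies at or below 0 in 69 of the 79.

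In the second pattern PTTH 3 h was below control 1 h. At 15 of these 29 loci it was below PTTH 1 h too, so that the level was lower at 3 h with hormone and higher at 3 h without it. Over the whole set, PTTH 3 h was below PTTH 1 h with limits apart in 15 of the 79 loci, overlapping it in 61 and above it in 3, where all tested loci gave 20.5%, 59.6% and 19.8%. By at least 1.5-fold it was lower in 13, against 9.10% of tested loci, but with limits apart as well in only 6, against 7.20%. The 13 became 7 with at least 20 implied fragments in each library or with the limits of the controls apart, and 5 with a pseudocount of 5 FPKM. By at least 1.5-fold it was higher in 2, against 9.31%, and by any amount it was lower in 56, against 53.4%. In each of the 15, control 3 h was above control 1 h with limits apart. The short locus at nscaf2902 6010843 to 6011518 held 18.9 FPKM (16.2 to 21.5) in PTTH 3 h, 77.5 FPKM (72.0 to 82.9) in control 3 h, 55.8 FPKM (51.2 to 60.4) in PTTH 1 h and 49.0 FPKM (44.5 to 53.5) in control 1 h. It was 2.96-fold lower in PTTH 3 h than in PTTH 1 h, and 1.58-fold higher in control 3 h than in control 1 h.

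At nscaf3089 219658 to 226146 the libraries had 10.9 FPKM (9.64 to 12.1) in PTTH 3 h, 46.2 FPKM (43.6 to 48.8) in control 3 h, 28.9 FPKM (26.8 to 30.9) in PTTH 1 h and 26.1 FPKM (24.1 to 28.2) in control 1 h. The 1 h libraries overlapped, and the 3 h libraries lay on either side of them. At nscaf2844 34282 to 41273 there were 2.49 FPKM (1.61 to 3.37) in PTTH 3 h, 19.4 FPKM (16.9 to 22.0) in control 3 h, 7.12 FPKM (5.61 to 8.64) in PTTH 1 h and 9.71 FPKM (7.87 to 11.6) in control 1 h. PTTH 3 h was 2.86-fold below PTTH 1 h and control 3 h 2.0-fold above control 1 h.

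Opposite changes were also found at abundant loci, where the depth separates the limits of small differences. At nscaf3060 151892 to 152376 the level was 463 FPKM (438 to 489) in PTTH 3 h, 960 FPKM (922 to 998) in control 3 h, 571 FPKM (541 to 600) in PTTH 1 h and 560 FPKM (529 to 591) in control 1 h. It was 1.23-fold lower in PTTH 3 h than in PTTH 1 h and 1.71-fold higher in control 3 h than in control 1 h. At nscaf2937 920853 to 926091 there were 381 FPKM (373 to 389) in PTTH 3 h, 770 FPKM (758 to 782) in control 3 h, 398 FPKM (390 to 407) in PTTH 1 h and 502 FPKM (492 to 512) in control 1 h. Here the PTTH libraries differed by only 1.04-fold, with limits that just separate at this depth.

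In the third pattern PTTH 3 h lay above control 1 h. A pair of neighbours on nscaf1690 had similar ratios at different levels, and the limits of PTTH 3 h lay above control 1 h at the longer of them. At 6182012 to 6210424 there were 7.18 FPKM (6.47 to 7.89) in PTTH 3 h, 18.7 FPKM (17.5 to 19.8) in control 3 h, 4.11 FPKM (3.56 to 4.65) in PTTH 1 h and 3.74 FPKM (3.20 to 4.28) in control 1 h. At 6179597 to 6180795 there were 11.4 FPKM (8.43 to 14.3) in PTTH 3 h, 28.1 FPKM (23.4 to 32.7) in control 3 h, 7.66 FPKM (5.20 to 10.1) in PTTH 1 h and 7.28 FPKM (4.74 to 9.81) in control 1 h. The first was 1.75-fold higher in PTTH 3 h than in PTTH 1 h with limits apart, against 4.99-fold between the controls. The second was 1.48-fold higher with overlapping limits, against 3.86-fold between the controls.

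The locus at nscaf2792 12760 to 21555 was the other whose PTTH 3 h limits lay above control 1 h. It had 3.80 FPKM (2.98 to 4.62) in PTTH 3 h, 8.67 FPKM (7.40 to 9.93) in control 3 h, 3.14 FPKM (2.38 to 3.91) in PTTH 1 h and 2.19 FPKM (1.52 to 2.85) in control 1 h. PTTH 3 h was 1.21-fold above PTTH 1 h with overlapping limits, and PTTH 1 h was 1.44-fold above control 1 h, also with overlapping limits, so a rise between the times with hormone was not shown here. PTTH 3 h stood at 24.9% of the control rise, the largest share among the 79, and at 23.1% for the longer and 19.6% for the shorter locus on nscaf1690.

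**Figure D3:**
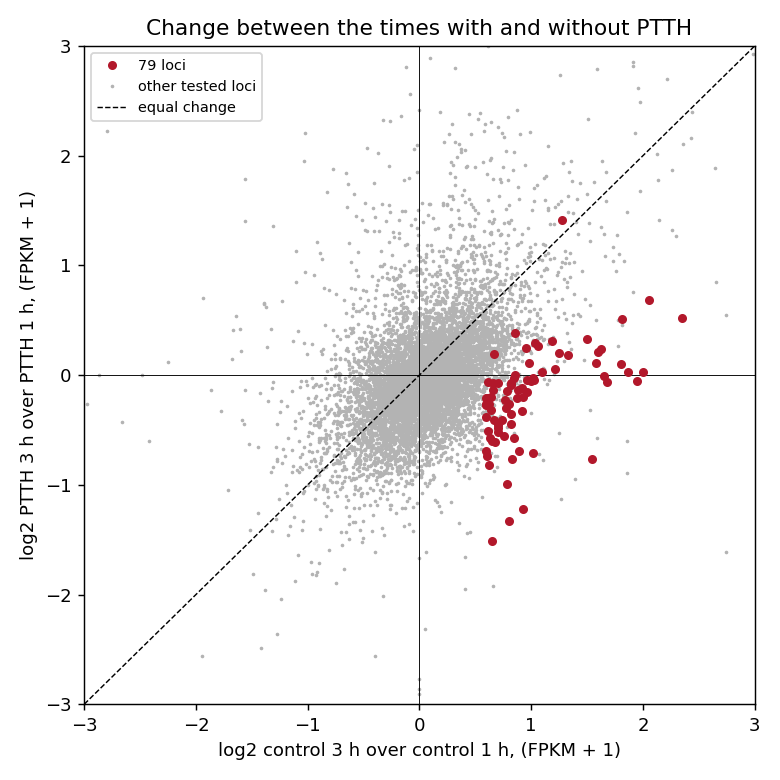
Log2 ratio of PTTH 3 h over PTTH 1 h (vertical) against control 3 h over control 1 h (horizontal), both of (FPKM + 1), for the 79 loci and the other tested loci, with a dashed line of equal change; 22 of the other tested loci lie outside the axes. The 79 are placed on the right by the rule, and 56 of them lie below 0 on the vertical axis.

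The PTTH 1 h library entered the choice of the loci through the mean level alone, and it shows where they stood early under hormone. At 1 h most of them differed little between hormone and control. PTTH 1 h was at least 1.5-fold lower than control 1 h in 5 of the 79 (6.33%), against 2.76% of tested loci, and at least 1.5-fold higher in 1 (1.27%), against 1.97%. With limits apart at any size, 13 (16.5%) were lower, against 10.3% of tested loci, and 0 were higher, against 3.32%. The median log2 ratio was -0.17 over the 79 and -0.07 over all tested loci, and 64 of the 79 (81.0%) were lower by any amount, against 67.3%. The rule selected loci whose control 1 h value was low, and the control 1 h library is shared with it, so these shares are not independent of the choice.

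**Figure D4:**
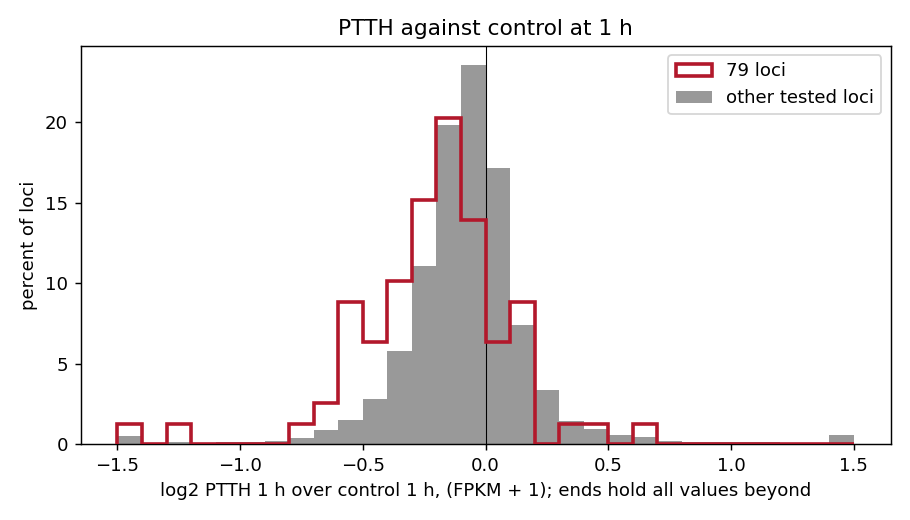
Distribution of the log2 ratio of PTTH 1 h over control 1 h, of (FPKM + 1), in percent of loci for the 79 loci and the other tested loci. The bulk of both lies near 0, and the 79 have a median of -0.17.

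At 1 h the loci with limits apart were all lower with PTTH. Beside XLOC_007474, which was 2.65-fold lower at 1 h, and XLOC_001851, which was 1.79-fold lower, the clearest was a locus at nscaf2795 1629928 to 1630699. It had 8.05 FPKM (6.55 to 9.56) in PTTH 3 h, 18.5 FPKM (16.1 to 20.9) in control 3 h, 2.40 FPKM (1.56 to 3.24) in PTTH 1 h and 7.06 FPKM (5.55 to 8.57) in control 1 h. PTTH was 2.95-fold lower at 1 h and 2.30-fold lower at 3 h, and the level was higher at 3 h in both kinds of library, 3.36-fold with PTTH and 2.62-fold without. It is the one locus of the 79 that lies above the line of equal change in the plot of changes over time.

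At nscaf2529 4391316 to 4391889 there were 114 FPKM (102 to 126) in PTTH 3 h, 333 FPKM (312 to 354) in control 3 h, 91.5 FPKM (80.2 to 103) in PTTH 1 h and 146 FPKM (131 to 161) in control 1 h. PTTH was 1.60-fold lower at 1 h and 2.93-fold lower at 3 h, with limits apart at both times. At nscaf2859 19877 to 25368 there were 10.3 FPKM (9.34 to 11.3) in PTTH 3 h, 60.4 FPKM (58.0 to 62.7) in control 3 h, 10.7 FPKM (9.73 to 11.7) in PTTH 1 h and 14.9 FPKM (13.7 to 16.1) in control 1 h. The 1 h difference was 1.39-fold and that at 3 h 5.86-fold. Smaller early differences with limits apart were found at nscaf2860 7469 to 16978 and nscaf2993 4776639 to 4779371, each 1.46-fold lower with PTTH, and at nscaf2398 417588 to 418203, 1.37-fold lower.

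The 1 locus at least 1.5-fold higher with PTTH at 1 h, named after its values were seen, was at nscaf98 1269043 to 1270098. It had 9.98 FPKM (5.72 to 14.2) in PTTH 3 h, 21.9 FPKM (15.6 to 28.3) in control 3 h, 17.0 FPKM (11.3 to 22.7) in PTTH 1 h and 10.4 FPKM (5.73 to 15.0) in control 1 h. Its 1 h limits overlapped, with a log2 ratio of 0.66 ± 0.37.

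PTTH 1 h is the other library of the 1 h time, but it held hormone and its glands were paired with those of control 1 h. It is therefore neither a replicate of control 1 h nor a separate larval pool. A comparison of control 3 h with it largely repeats the comparison with control 1 h. Control 3 h was at least 1.5-fold above PTTH 1 h in 75 of the 79 loci (94.9%), against 15.0% of tested loci, and above it with limits apart in 73 (92.4%), against 31.7%. It was above each of the other 3 libraries with limits apart in 67 (84.8%), against 15.9% of tested loci. Control 3 h had been selected high in 2 ratios, so these shares describe the loci and are not support for the choice.

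The loci that were at least 2-fold lower with PTTH at 3 h with limits apart, without a 1.5-fold culture-time rise, make the nearest comparison. They were 156 of the 8547 tested loci. In these, PTTH 3 h was below PTTH 1 h with limits apart in 126 and overlapped it in 30, while among the 79 it was below in 15. The median log2 ratio of PTTH 3 h over PTTH 1 h was -0.15 in the 79 and -0.74 in the 156. Both sets were cut from the same contrast by the control values, which fixes much of this contrast, and with 1 library per group the difference was not tested. At 1 h the median log2 ratios of PTTH over control were -0.17 and -0.29.

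Several of the 79 lay beside each other. Along the scaffolds, 13 of the 79 (16.5%) were next to another of them among tested loci, where 1.61% of all tested loci were next to one of the 79. With gaps of at most 100 kb, 15 of them fell into 6 stretches, in which 2 other tested loci lay. Each stretch was drawn from the first to the last of the 79 in it, which limits how many others it can hold. Among the 125 other tested loci directly beside one of the 79, 33 (26.4%) were at least 1.5-fold lower in PTTH 3 h than in control 3 h, against 16.8% of all tested loci. Of the same 125, 16 (12.8%) were at least 1.5-fold higher in control 3 h than in control 1 h, against 9.85%. Whether neighbouring loci are pieces of 1 gene cannot be told from the table, and so they are not counted as independent.

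The longest such stretch was on nscaf3058, where 4 of 5 tested loci between 7211630 and 7280567 belonged to the 79. The one at 7211630 to 7221308 held 8.45 FPKM (7.51 to 9.38) in PTTH 3 h, 21.0 FPKM (19.5 to 22.5) in control 3 h, 10.1 FPKM (9.02 to 11.1) in PTTH 1 h and 12.0 FPKM (10.8 to 13.2) in control 1 h. A short locus at 7237520 to 7237931 was 2.88-fold lower with PTTH at 3 h, at 4.67 FPKM (2.68 to 6.66) in PTTH 3 h and 13.4 FPKM (10.0 to 16.8) in control 3 h. Its neighbour at 7238654 to 7238882 was 2.25-fold lower, at 27.8 FPKM (17.8 to 37.8) in PTTH 3 h and 62.7 FPKM (48.0 to 77.4) in control 3 h. The locus at 7280150 to 7280567 was 3.98-fold lower, at 12.0 FPKM (1.78 to 22.2) in PTTH 3 h and 47.7 FPKM (30.0 to 65.4) in control 3 h, from only 5.52 implied fragments in PTTH 3 h and 29.0 in control 3 h. The fifth locus, at 7250708 to 7264831, was outside the rule and leaned the same way, with 18.0 FPKM (16.6 to 19.4) in PTTH 3 h and 32.2 FPKM (30.2 to 34.2) in control 3 h. With 100 kb on either side of the stretch included, 4 of 12 tested loci belonged to the 79. The median log2 ratio of PTTH 3 h over control 3 h of the others was -0.36.

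On the same scaffold, adjoining loci at 4006228 to 4024515 and 4028826 to 4038494 had nearly equal profiles. The first had 38.0 FPKM (36.4 to 39.7) in PTTH 3 h, 102 FPKM (98.7 to 104) in control 3 h, 56.3 FPKM (54.2 to 58.4) in PTTH 1 h and 59.8 FPKM (57.5 to 62.1) in control 1 h. The second had 41.3 FPKM (36.4 to 46.3) in PTTH 3 h, 103 FPKM (95.3 to 111) in control 3 h, 63.8 FPKM (57.5 to 70.1) in PTTH 1 h and 64.3 FPKM (57.7 to 70.9) in control 1 h. In both, the 1 h libraries overlapped, PTTH 3 h was below them and control 3 h above.

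The stretch on nscaf2529 held the locus with the largest rise, the abundant one at 4391316 to 4391889 and, between them, 4352985 to 4353850 with 5.30 FPKM (2.73 to 7.87) in PTTH 3 h, 12.2 FPKM (8.26 to 16.1) in control 3 h, 4.01 FPKM (1.69 to 6.32) in PTTH 1 h and 3.66 FPKM (1.35 to 5.97) in control 1 h. Further along the scaffold the direction at 3 h changed. At 4416629 to 4434505 there were 103 FPKM (98.0 to 108) in PTTH 3 h, 26.3 FPKM (23.6 to 29.0) in control 3 h, 29.3 FPKM (26.5 to 32.1) in PTTH 1 h and 29.1 FPKM (26.2 to 32.0) in control 1 h, so that PTTH was 3.92-fold higher at 3 h. The short locus at 4437391 to 4437635 was 5.18-fold higher with PTTH at 3 h, at 149 FPKM (104 to 195) in PTTH 3 h and 28.8 FPKM (11.0 to 46.6) in control 3 h.

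**Figure D5:**
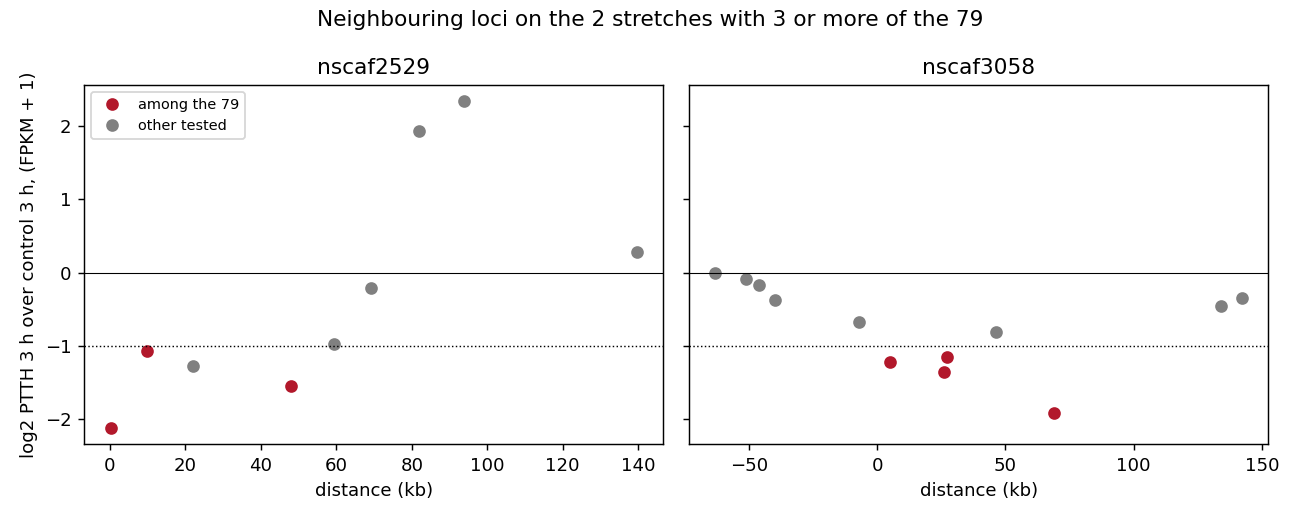
Log2 ratio of PTTH 3 h over control 3 h, of (FPKM + 1), for tested loci within 100 kb of the stretches on nscaf2529 and nscaf3058 that hold 3 and 4 of the 79, by distance in kb of the middle of each locus from the start of the first of these, with a dotted line at -1. On nscaf2529 the lower loci are followed by loci higher with PTTH, at 1.93, 2.33 and, farthest along, 0.28; on nscaf3058 no tested locus in the window is higher with PTTH.

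On the small scaffold632 the loci at 2 to 757 and 1368 to 2648 were both among the 79. The first had 5.37 FPKM (2.80 to 7.94) in PTTH 3 h, 18.5 FPKM (13.6 to 23.5) in control 3 h, 5.6 FPKM (2.71 to 8.49) in PTTH 1 h and 8.76 FPKM (5.18 to 12.3) in control 1 h. The second had 1.65 FPKM (0.607 to 2.70) in PTTH 3 h, 4.92 FPKM (3.11 to 6.74) in control 3 h, 1.31 FPKM (0.382 to 2.24) in PTTH 1 h and 1.49 FPKM (0.435 to 2.54) in control 1 h. On nscaf2792, 37372 to 48484 adjoined the locus described above. It was 2.23-fold lower in PTTH 3 h than in control 3 h, with 6.49 FPKM (5.82 to 7.15) in PTTH 3 h and 14.5 FPKM (13.4 to 15.6) in control 3 h.

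Depth set how firmly each locus can be read. At least 20 implied fragments in every library were reached by 62 of the 79 (78.5%), against 87.0% of tested loci. Fewer than 20 in PTTH 3 h were found in 16, a count not made over all tested loci. The locus at nscaf2953 1705534 to 1706492 is the thinnest, with 1.73 FPKM (0 to 3.93) in PTTH 3 h, 10.5 FPKM (5.19 to 15.9) in control 3 h, 3.64 FPKM (0.209 to 7.06) in PTTH 1 h and 5.51 FPKM (0.826 to 10.2) in control 1 h. It ranks among the 10 lowest ratios with 2.50 implied fragments in PTTH 3 h and a log2 ratio of -2.08 ± 0.67. The limits of control 3 h and control 1 h overlapped in it and in 10 more. They were apart in the remaining 68, where 7.71% of tested loci had both a 1.5-fold rise and limits apart. The rule demands that rise of all 79, so nothing is read from the 7.71%. Of the 842 tested loci with a 1.5-fold rise, 659 had these limits apart.

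Spans of at least 30 kb were found in 3 of the 79 (3.80%), against 1.5% of tested loci. These are the locus on nscaf3027 described above, nscaf2813 80504 to 120403, which was 2.43-fold lower in PTTH 3 h than in control 3 h, and nscaf2902 734901 to 766259, which was 2.20-fold lower. The longest, on nscaf2813, had 3.33 FPKM (2.99 to 3.67) in PTTH 3 h, 8.08 FPKM (7.55 to 8.62) in control 3 h, 3.56 FPKM (3.21 to 3.92) in PTTH 1 h and 4.15 FPKM (3.76 to 4.54) in control 1 h. The PTTH libraries overlapped in it.

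The thresholds cut through a continuous range. Just inside the limit on the 3 h ratio of (FPKM + 1) were nscaf2822 1310487 to 1312943 at 0.4997, nscaf3031 1202176 to 1207027 at 0.4969 and nscaf2865 4539728 to 4549042 at 0.4968. Just outside it were nscaf3063 1195445 to 1201626 at 0.5014, nscaf2889 3616023 to 3632756 at 0.5023 and nscaf2511 2301764 to 2319829 at 0.5030. Just inside the limit on the rise were the same locus on nscaf2865 at 1.5085, nscaf2852 2150630 to 2153355 at 1.5099 and nscaf2916 497015 to 502352 at 1.5101. Just outside were nscaf2770 2357253 to 2358791 at 1.4928, nscaf2888 1824957 to 1843946 at 1.4681 and nscaf2987 473920 to 478952 at 1.4673.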

How the data were processed

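The authors deposited FPKM values for 4 libraries, each value with its confidence limits. The name of the deposited table mentions Cuffdiff, and CASAVA 1.8.0, TopHat and SAMtools stand in the submitters' processing notes. Not given in the sources used here are the build, the annotation, the scaling between libraries, the kind of limit and whether starts count from 0 or 1. Ratios are log2 ratios of (FPKM + 1), a scale that shrinks changes of low loci. Counts and shares of loci past a fold use this same scale, and folds given for single loci are plain FPKM ratios. Implied fragments take the distance from a value to its upper limit as 2 Poisson standard deviations, an assumption because the kind of limit is not given. They and the SE are read as counting error only. Variation between gland pools cannot be read from the limits, as each group has 1 library. The members and the naming rule were chosen with earlier results of these data known. The rule describes loci with the lowest 3 h ratios, the largest rises, the highest means, the extreme PTTH changes over time, separate 1 h limits, adjoining positions, or places next to a threshold. Lists of named genes could not be used. The selection step was tested on simulated data, and the settings and outcome of that test are not given here. Because variation between gland pools cannot be read from these libraries, that test is no support for the choice of loci. Python 3.11.15, numpy 2.4.6, pandas 2.3.3 and matplotlib 3.10.9 were used. Alternatives were other pseudocounts, filters, scalings, thresholds and depth minimums.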

Additional observations from a re-analysis of the deposited data

Results flagged for a closer look

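In 15 of the 79 loci, PTTH 3 h was below PTTH 1 h while control 3 h was above control 1 h, each with limits apart, so the libraries with and without hormone changed in opposite directions between the times. With 1 library per group this difference was not tested, and the rule itself favours low PTTH 3 h and high control 3 h. PTTH 3 h was below PTTH 1 h with limits apart in 19.0% of the 79, near the 20.5% of all tested loci. The share of tested loci meeting both conditions was not counted, so nothing particular to the 79 is read from this count. The size of the PTTH change ran from 2.96-fold lower at nscaf2902 6010843 to 6011518 to 1.04-fold lower at nscaf2937 920853 to 926091. The direction of the smallest of these changes depends on the scaling between libraries.

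In 1 locus, at nscaf2795 1629928 to 1630699, PTTH was at least 1.5-fold below control at 1 h and PTTH 3 h at least 1.5-fold above PTTH 1 h, each with limits apart. Its PTTH 1 h value rests on 32.5 implied fragments, and this difference was not tested either.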

How the results depend on the processing

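The number of loci meeting the rule was 79, and 119 with a pseudocount of 0.1 FPKM, 32 with one of 5 FPKM, 44 after centring on the median, 47 with a common upper quartile, 7 at a 3 h ratio of at most 0.25, and 26 with a rise of at least 2-fold. It stayed within 1.5 times for the other 8 settings, such as 53 with a fixed total per library and 98 without the demand on limits. Each smaller set was part of the 79. A pseudocount of 5 FPKM moved the median log2 ratio to -0.96 for PTTH 3 h over control 3 h and to 0.67 for control 3 h over control 1 h, and centring moved the first to -1.08. The 5 loci lower with PTTH at 1 h became 12 with a pseudocount of 0.1 FPKM. The 1 higher locus became 0 with a pseudocount of 5 FPKM or with at least 20 implied fragments in each library. Of the 2 loci at least 1.5-fold higher in PTTH 3 h than in PTTH 1 h, 1 remained with a pseudocount of 5 FPKM. The 13 lower ones became 5 with that pseudocount, 7 with the limits of the controls apart, and 7 with at least 20 implied fragments in each library. That last demand and the one on overlapping spans were chosen after seeing the data. No single locus described by rule changed direction in either ratio of the rule under the pseudocounts and scalings. A pseudocount cannot change the sign of a ratio, and the rule sets both ratios well away from equality, so nothing is read from this. No paired analysis was possible because each group has 1 library, and no library could be left out.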

Other observations

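Counterparts of the rule were counted for the other combinations. At least 2-fold higher in PTTH 3 h than in control 3 h with limits apart, with control 3 h at least 1.5-fold below control 1 h, were 33 of the 8547 tested loci. At least 2-fold higher in PTTH 3 h with limits apart, and at least 1.5-fold above PTTH 1 h, were 164 of the 8547. All of these counts and that of the 79 share the control 3 h and PTTH 3 h libraries. The median log2 ratio of PTTH 3 h over control 3 h was -0.19 over all tested loci. The counterparts were not recounted after centring, so their sizes are not compared with the 79.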
